A study of Mus musculus and Homo sapiens with 27 samples.

Results

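The genes described here are 9 whose products copy DNA or bring cells to the point of copying it: Mcm2, Pcna, Fen1, Rrm2, Tk1, Ccne1, Cdk4, Tfdp1 and Hmgb2. They were taken by symbol from the annotation of a spotted mouse cDNA array, where 16 features carry 1 of these symbols and no other. They make up 9 of the 331 mouse genes that could be named. Mouse B cells from adult BALB/c spleen (Balb-c in the labels) were grown with lipopolysaccharide (LPS), a bacterial cell wall component that sets resting B cells dividing. The cells lacked the transcription factor IRF4 on both alleles (Irf4-/-, here KO) or carried 1 intact allele (Irf4+/-, here Het), so every group had lost at least 1 allele and cells with both alleles were not compared here. KO cells had 3 arrays each without stimulation (0 h) and after 24, 48 and 96 h of LPS. For Het cells there were 3 arrays of 0 h, 2 each of 24 and 48 h, and 4 of 96 h. The series design text calls the repeats biological, but the labels tie no array to an animal, so p-values measure the spread between these arrays. The labels do not say whether animals were pooled or how the B cells were isolated.

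The study followed B cells on their way to antibody secretion and class switching, and asked how the amount of IRF4 sets that course. Genes of DNA synthesis are a readout of the division that goes with it. MCM2 is a subunit of the helicase that opens the double helix, PCNA is the sliding clamp that holds DNA polymerase on its template, and FEN1 trims the primers of lagging strand fragments. RRM2, the small subunit of ribonucleotide reductase, and TK1, thymidine kinase, supply deoxynucleotides. Cyclin E1 (Ccne1) and CDK4 drive cells through G1 into S phase, and DP1 (Tfdp1) is the partner of the E2F factors, which switch on many genes of DNA synthesis. HMGB2 is a chromatin protein that bends DNA and is abundant in dividing cells. In B cells this set is low at rest and is induced when a mitogen such as LPS pushes them into cycle.

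Every value is a log2 ratio of B-cell RNA over a pool of RNA from B-cell, T-cell and monocyte lines, so a level of 0 is the level in the pool. The direction, sample over pool, was taken from the dyes and is not stated by the files, and were it the other way round every sign would turn. The median of all features was subtracted from every array, and a gene with 2 features has their mean. Such levels compare arrays for 1 gene and do not rank genes against each other. In bulk RNA, fewer cells of a type and less RNA per cell cannot be told apart. Irf4 was not among the named features, so the loss of the gene could not be seen in the data. The channel fields of 3 arrays titled KO, 24 h replicate 3 and 48 h replicates 1 and 3, say Het. The titles were followed. Cd79b, whose product signals for the B-cell receptor, lay above the pool on 23 of 23 arrays. The 2 B-cell markers averaged 2.72 to 4.06 on KO arrays and 2.80 to 4.60 on Het arrays. Averages of the 3 T and NK markers lay between -3.54 and 1.25 on KO arrays and between -2.05 and -0.72 on Het arrays. The 2 myeloid markers, Tyrobp and Ncf1, averaged 0.50 to 1.69 on KO arrays and -3.41 to 0.89 on Het arrays, and none of 6 erythroid markers was named.

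Some arrays stood apart, and the results are given with and without them. By the numbers of the authors' database in their titles the arrays fall into 3 ranges. The lowest, numbers beginning with 58, holds 5 arrays: KO and Het 24 h replicate 1, KO 0 h replicate 1 and Het 0 h replicates 1 and 2. The 3 Het arrays among them had the widest spread of deposited values of all arrays. SDs were 1.35 to 3.10 over the 5 arrays, against 1.12 to 2.38 on the 5 arrays of the middle range and 0.98 to 1.79 on the 13 of the highest. Het 0 h replicate 2 held single features near -10 for several of the 9 genes. KO 24 h replicate 1 had a rank correlation of only 0.34 with the other KO 24 h arrays over the named genes, against 0.64 and 0.68 for those arrays. Its 3 T and NK markers (Cd3g, Tcra and Gzma) averaged 1.25, while on the other KO arrays of 24 and 48 h they averaged between -3.54 and -1.41. Het 0 h replicate 3 correlated better with KO at 0 h (0.71) than with the other Het arrays of 0 h (0.59). This was not particular to that array. Het 24 h replicate 2 was nearer to KO at 24 h (0.82 against 0.71). Het 48 h replicates 1 (0.84 against 0.73) and 2 (0.737 against 0.734) were nearer to KO at 48 h. KO 24 h replicates 2 and 3 were nearer to Het at 24 h (0.78 for each).

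Promoter sequences are shown because 8 of the 9 genes varied together on the arrays outside the lowest range, as described further on. Over all arrays they did so less closely, and a link to the motifs was not tested. The 250 bases before each start site that RefSeq gives on GRCm38.p6 were searched on both strands for 4 motifs that are known from promoters of dividing cells. They were the CCAAT box (CCAAT), an E2F-type motif (the letters TTCCCGC, also TTCGCGC, also TTGCCGC, also TTGGCGC), the E-box of MYC and its relatives (CACGTG) and the cell cycle homology region or CHR (TTTGAA). Of 27025 genes with such a window, 37.5% had a CCAAT box, 9.01% the E2F-type motif, 6.86% the E-box and 18.3% the CHR. TTGGCGC can share bases with ATTGG, the CCAAT box read on the other strand. Among the 9 genes, 4 had a CCAAT box (Mcm2, Pcna, Rrm2 and Hmgb2), 3 the E2F-type motif (Fen1, Rrm2 and Tfdp1), 3 the E-box (Fen1, Cdk4 and Tfdp1) and 3 the CHR (Mcm2, Fen1 and Hmgb2). Tk1 and Ccne1 had none of the 4 within these bases. A match is a run of letters and not a bound site, and no match says only that those letters are missing from the window.

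The runs below are in the direction of transcription, with the motif in capitals. In the CCAAT group they are Pcna at chr2:132253255-132253275 (minus strand), 87 bases before the start, Mcm2 at chr6:88898943-88898963 (minus strand), 175 bases before it, and Rrm2 at chr12:24708196-24708216 (plus strand), 50 bases before it. ATTGG is CCAAT read on the other strand.
Pcna: cgggtacgATTGGtccttgag
Mcm2: aaggccggATTGGtcctcaga
Rrm2: agcggcgtCCAATgggaggcg
The E2F-type motif lay 34 bases before the second of the 2 Fen1 starts (chr19:10203941-10203963, minus strand) and 235 bases before the Rrm2 start (chr12:24708011-24708033, plus strand).
Fen1: ggaggctgTTCGCGCctggcaga
Rrm2: caacctcaGCGGCAAcgcccgcc

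The Hmgb2 and Cdk4 promoters stood out for repeats of 1 motif. Hmgb2 had 4 CCAAT boxes in its 250 bases, a number that 0.977% of all genes reached. Cdk4 had 4 E-boxes in the last 180 bases before its start (chr10:127063355-127063534, plus strand), which 5 of all genes searched, or 0.019%, reached.
Cdk4: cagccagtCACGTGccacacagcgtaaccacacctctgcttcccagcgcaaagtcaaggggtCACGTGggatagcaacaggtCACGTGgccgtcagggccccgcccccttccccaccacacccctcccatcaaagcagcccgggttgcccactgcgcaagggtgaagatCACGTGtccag

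Taken as the median of the 9 genes on each array, the level lay above the pool on every array of 24 and 48 h and below it on every array of 96 h, in both genotypes. Single genes departed from this, with group means below the pool for Rrm2 at 48 h in KO (-0.84) and Het (-0.21), for Hmgb2 at 24 h in KO (-0.46) and for Cdk4 at 48 h in KO (-0.01). The median of the 9 genes on an array lay between -0.10 and 0.23 in KO and between -1.44 and 0.34 in Het at 0 h. At 24 h it lay between 0.35 and 1.32 in KO and at 1.28 and 1.98 in Het, and at 48 h between 0.21 and 0.80 in KO and at 0.72 and 1.24 in Het. At 96 h it lay between -1.29 and -1.03 in KO and between -1.76 and -0.54 in Het.

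**Figure D1:**
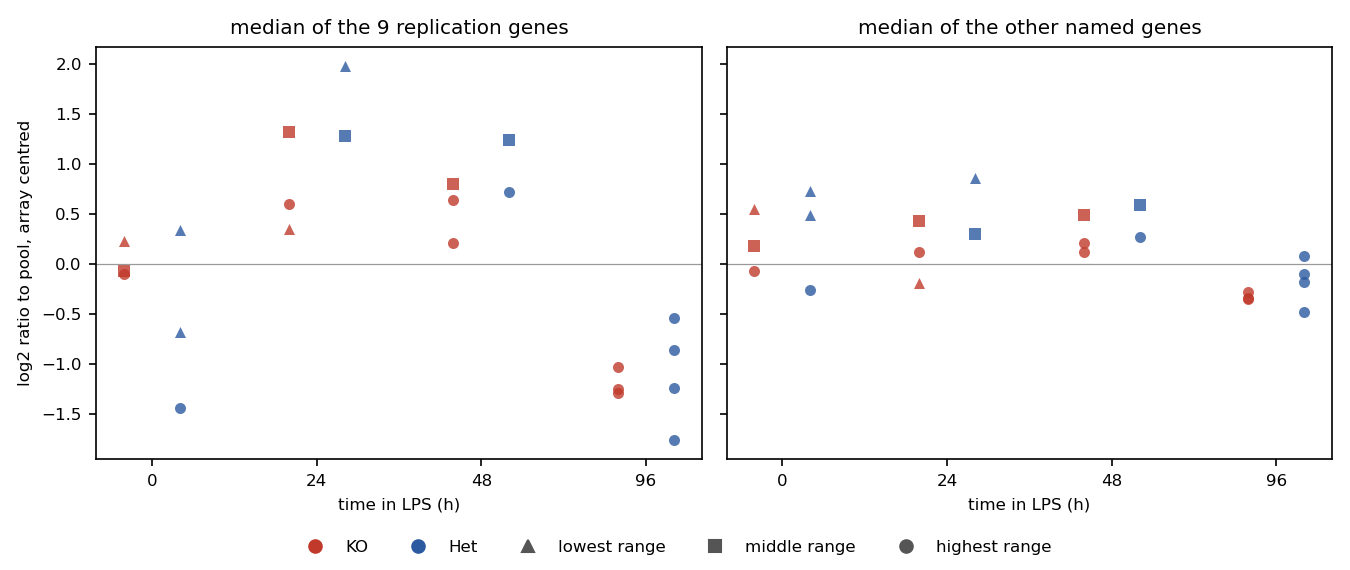
Median log2 ratio to the pool on each array (vertical axis) against time in LPS (horizontal axis, h), for the 9 replication genes on the left and the other named genes on the right. KO arrays (red) are drawn left of Het arrays (blue), and marker shape gives the range of database numbers. The median of the replication genes runs above that of the other genes at 24 h and below it at 96 h on every array.

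The median of the other named genes moved less, although single genes among them moved as far, as given further on. On each array the median of the 9 genes was set against the median of the other named genes, a difference that does not depend on how the array was centred. It was -0.32 to -0.03 in KO and -1.19 to -0.39 in Het at 0 h. At 24 h it was 0.48 to 0.89 in KO and 0.98 to 1.13 in Het, at 48 h 0.08 to 0.43 in KO and 0.45 to 0.66 in Het, and at 96 h -0.95 to -0.74 in KO and -1.28 to -0.63 in Het. The sign was thus the same on every array of 1 time, negative at 0 and 96 h and positive at 24 and 48 h.

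Of the replication fork genes, Mcm2 and Pcna gave the clearest courses. On KO arrays Mcm2 lay at 0.39, 0.22 and 0.02 at 0 h, at 0.16, 1.57 and 1.03 at 24 h, at 0.62, 0.17 and 0.64 at 48 h and at -1.58, -1.71 and -1.07 at 96 h. Het arrays had Mcm2 at 0.90, -0.10 and -1.44 at 0 h, at 2.35 and 1.50 at 24 h, at 1.14 and 0.76 at 48 h and at -2.10, -1.12, -1.63 and -0.67 at 96 h. Both genotypes were highest at 24 h by the group median, and every 96 h array lay below every 24 and 48 h array of its genotype. Resting and early stimulated arrays overlapped in both genotypes.

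On KO arrays Pcna lay at 0.23, 0.19 and -0.10 at 0 h, at 0.31, 2.02 and 1.34 at 24 h, at 0.64, 0.54 and 0.90 at 48 h and at -1.55, -1.29 and -0.82 at 96 h. Its Het levels lay at 0.48, 0.28 and -1.59 at 0 h, at 2.56 and 1.75 at 24 h, at 1.31 and 1.16 at 48 h and at -1.76, -0.64, -1.69 and -0.44 at 96 h. For the sliding clamp, every 24 and 48 h array lay above every 0 h array in both genotypes, although KO 24 h replicate 1 did so only by a small margin. In KO Tfdp1 was the only other of the 9 with this separation, 2 genes in all, as for 3.63% of all genes, and in Het it held for 6 (all but Mcm2, Rrm2 and Cdk4), as for 16.9%. By the group median both genotypes were highest at 24 h.

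On KO arrays Fen1 lay at 1.03, 0.31 and 0.34 at 0 h, at 0.35, 1.43 and 1.09 at 24 h, at 0.85, 0.43 and 0.82 at 48 h and at -1.03, -1.05 and -0.62 at 96 h. Fen1 in Het lay at 0.34, -4.94 and -0.88 at 0 h, at 1.98 and 1.28 at 24 h, at 1.24 and 1.09 at 48 h and at -1.32, -0.54, -0.25 and 0.15 at 96 h. The -4.94 is the mean of features at -10.28 and 0.40 on Het 0 h replicate 2, so 1 feature sets it.

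Both genes of deoxynucleotide supply were affected by that array as well. On KO arrays Tk1 lay at 0.40, -0.24 and 0.03 at 0 h, at 0.46, 0.93 and 0.38 at 24 h, at 0.87, 0.21 and 0.60 at 48 h and at -1.25, -1.43 and -1.03 at 96 h. Het arrays had Tk1 at -0.84, -4.35 and -1.47 at 0 h, at 1.49 and 0.72 at 24 h, at 1.08 and 0.55 at 48 h and at -1.66, -0.79, -1.50 and -0.44 at 96 h. The Tk1 features on Het 0 h replicate 2 lay at -8.54 and -0.17. By the mean of both features thymidine kinase lay lower on all 3 Het arrays of 0 h than on any KO array of 0 h. For Het 0 h replicate 2 this order rests on the feature at -8.54. The other feature, at -0.17, lay above the -0.24 of KO 0 h replicate 2.

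On KO arrays Rrm2 lay at -0.18, -0.68 and -0.58 at 0 h, at 0.51, 1.32 and 0.19 at 24 h, at 0.83, -2.03 and -1.33 at 48 h and at -0.49, -0.65 and -2.47 at 96 h. Rrm2 in Het lay at -1.42, -10.93 and -1.33 at 0 h, at 1.99 and 1.31 at 24 h, at 1.37 and -1.79 at 48 h and at -2.05, -1.21, -0.64 and -0.69 at 96 h. For Rrm2, 24 h was the only time with all arrays above the pool in either genotype. Its 2 features disagreed by over 1 log2 unit on 10 of 23 arrays, and outside the lowest range they had a correlation of 0.067. The first feature lay at -4.34 and -3.40 on KO 48 h replicates 2 and 3, at -3.84 on KO 96 h replicate 3 and at -4.59 on Het 48 h replicate 2. The second feature lay at 0.28, 0.75, -1.11 and 1.01 on these 4 arrays. Over all arrays of 24 and 48 h the second feature lay between 0.28 and 1.21 in KO and between 1.01 and 1.48 in Het, and at 96 h between -1.63 and -1.11 in KO and between -2.29 and -0.36 in Het. A reading of Rrm2 at 48 and 96 h thus depends on the feature taken.

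**Figure D2:**
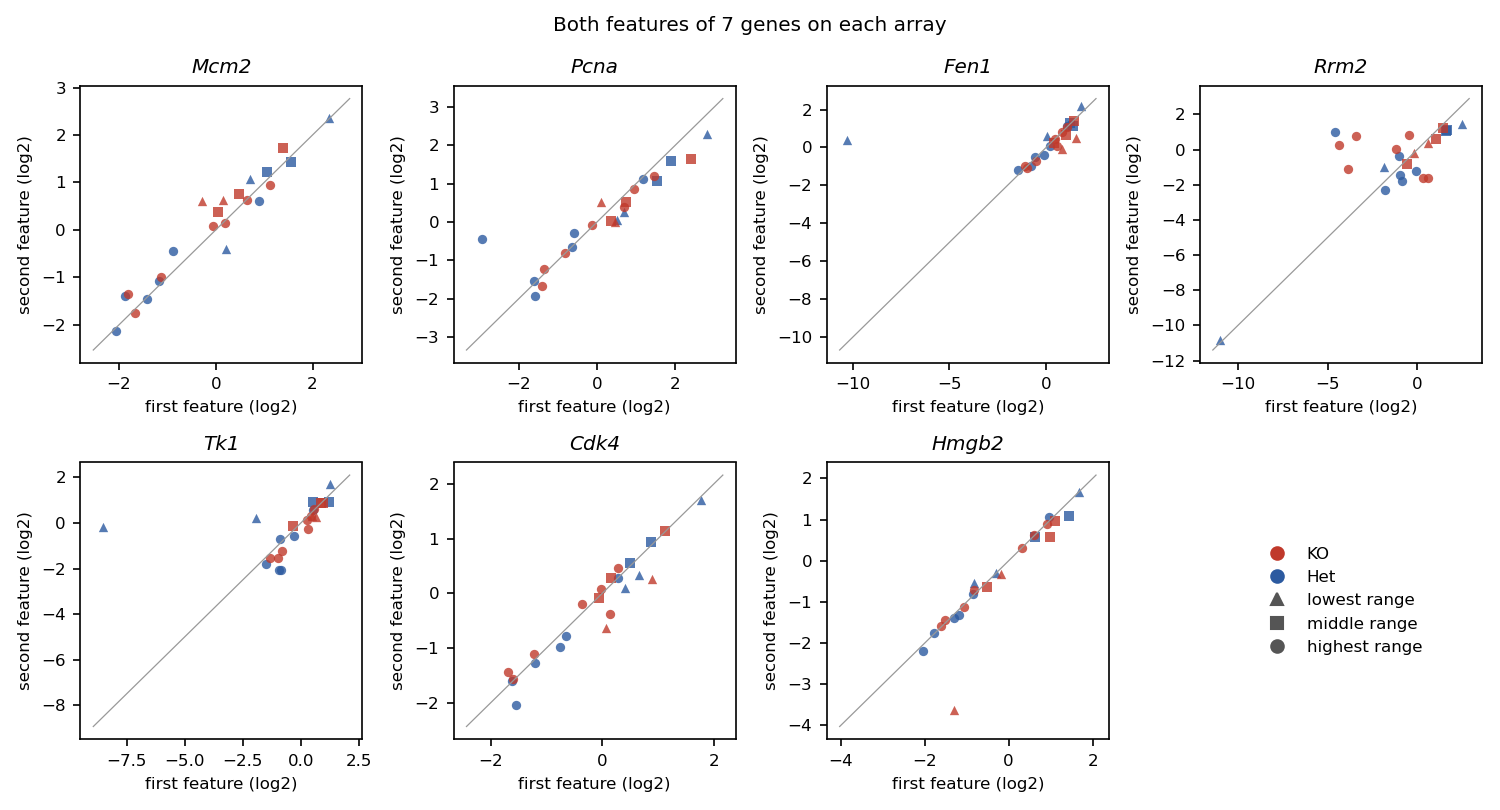
First feature (horizontal axis) against second feature (vertical axis), both as log2 ratios to the pool, for the 7 genes with 2 features, 1 point for each of 23 arrays, KO in red and Het in blue, with marker shape for the range of database numbers and a line where both are equal. Rrm2 points scatter off the line, and 1 Het array of the lowest range lies far to the left for Fen1 and Tk1 and at both low ends for Rrm2.

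For the other 6 genes with 2 features the correlation between features outside the lowest range was 0.89 to 0.99. Ccne1 and Tfdp1 had 1 feature each.

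Among the regulators of entry into S phase, Ccne1 lay on KO arrays at 0.18, 1.13 and 0.04 at 0 h, at 0.35, 1.02 and 0.60 at 24 h, at 0.53, 0.13 and 0.52 at 48 h and at -1.09, -1.01 and -0.97 at 96 h. Het arrays had Ccne1 at 0.37, -0.07 and -1.10 at 0 h, at 1.74 and 1.22 at 24 h, at 0.52 and 0.70 at 48 h and at -1.39, -1.04, -0.53 and -0.54 at 96 h. Cyclin E1 had the tightest KO 96 h group of the 9 genes, at -1.02 ± 0.06 (SD, n = 3).

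Cdk4 lay on KO arrays at 0.57, -0.07 and -0.12 at 0 h, at -0.29, 1.13 and 0.38 at 24 h, at 0.22, -0.28 and 0.03 at 48 h and at -1.57, -1.59 and -1.17 at 96 h. Its Het levels stood at 0.50, 0.26 and -1.61 at 0 h, at 1.74 and 0.91 at 24 h, at 0.52 and 0.28 at 48 h and at -1.79, -0.86, -1.24 and -0.71 at 96 h. Stimulated and resting arrays overlapped for Cdk4 in both genotypes, while its 96 h arrays lay below all 24 and 48 h arrays.

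Tfdp1 lay on KO arrays at -0.22, -0.11 and -0.17 at 0 h, at 0.36, 1.51 and 0.92 at 24 h, at 0.80, 0.58 and 0.74 at 48 h and at -0.68, -1.05 and -0.54 at 96 h. Tfdp1 in Het lay at -0.05, -10.15 and -1.41 at 0 h, at 2.01 and 1.51 at 24 h, at 1.48 and 0.72 at 48 h and at -1.54, -0.41, -0.48 and 0.09 at 96 h. Every 24 and 48 h array lay above every 0 h array in both genotypes. The -10.15 is the reading of its single feature on Het 0 h replicate 2.

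Hmgb2 lay on KO arrays at -0.25, -0.57 and -0.76 at 0 h, at -2.47, 0.78 and 0.32 at 24 h, at 1.04, 0.62 and 0.90 at 48 h and at -1.60, -1.48 and -1.09 at 96 h. Het arrays had Hmgb2 at -0.29, -0.68 and -1.76 at 0 h, at 1.67 and 0.60 at 24 h, at 1.27 and 1.02 at 48 h and at -2.11, -1.34, -1.25 and -0.82 at 96 h. The -2.47 comes from KO 24 h replicate 1, whose 2 Hmgb2 features lay at -1.31 and -3.63. Hmgb2 was the only 1 of the 9 with a higher group median at 48 h than at 24 h in both genotypes, and its groups at those times overlapped.

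**Figure D3:**
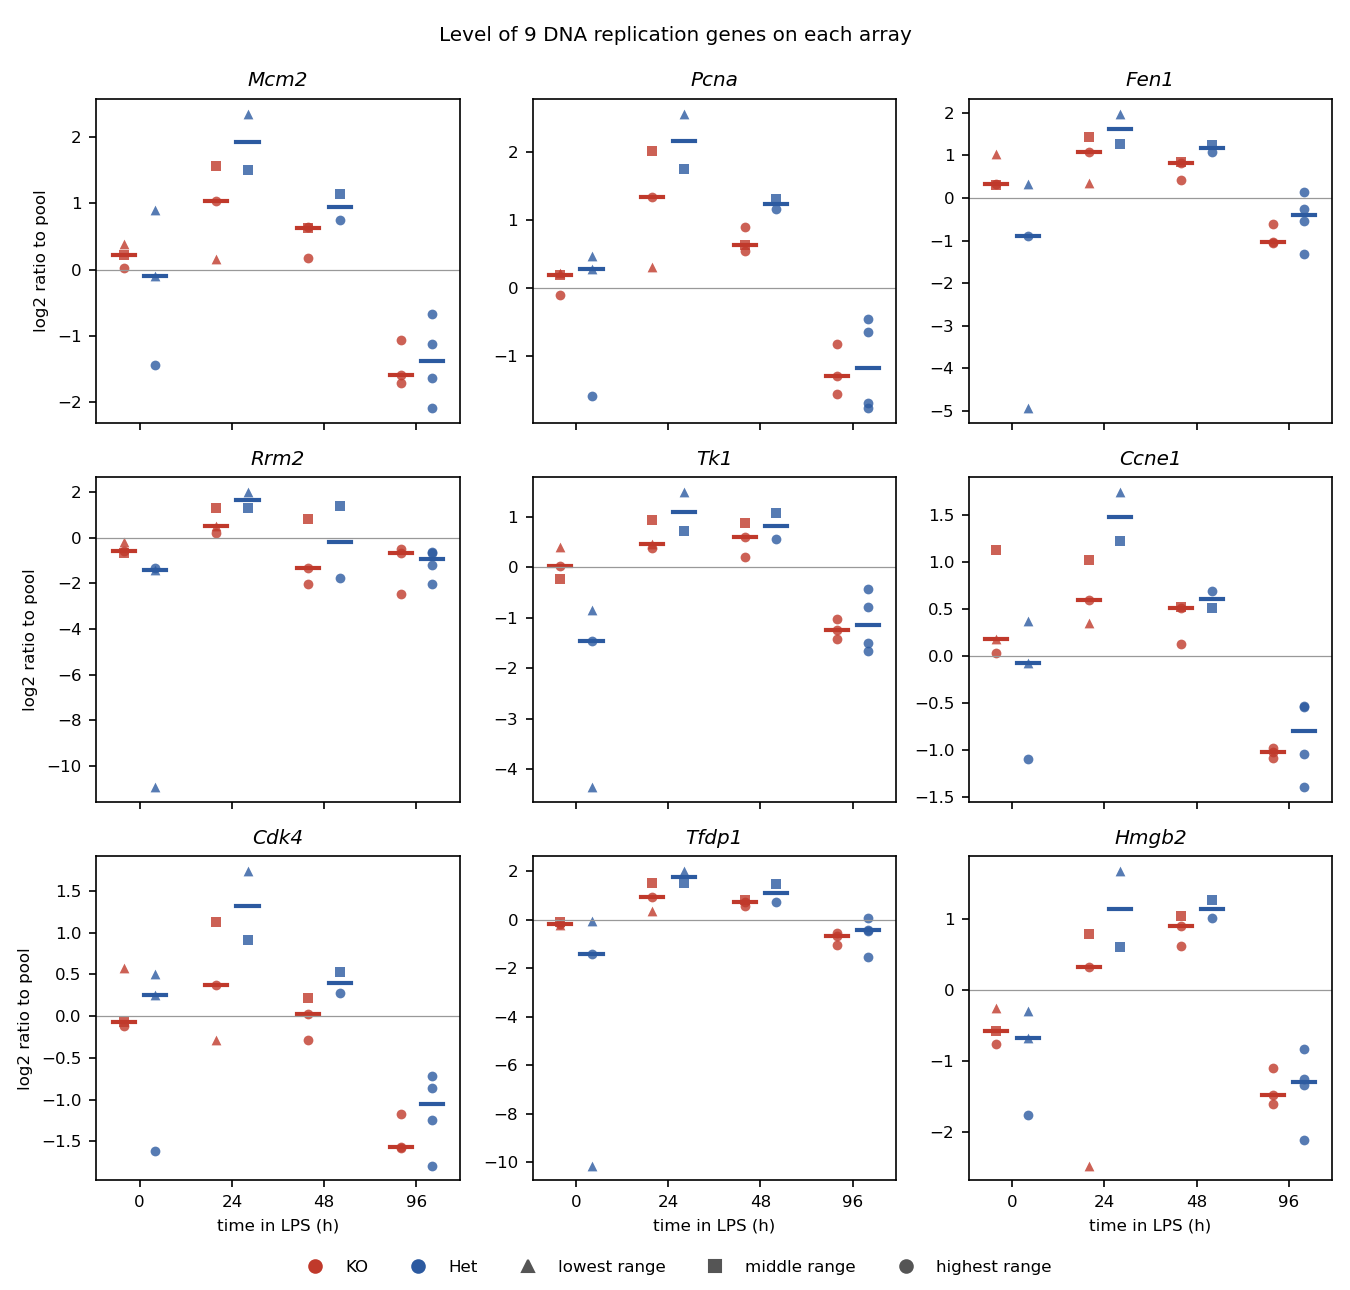
Log2 ratio to the pool (vertical axis) against time in LPS (horizontal axis, h) for each of the 9 genes, 1 point per array, KO (red) left of Het (blue), with a bar at the group median and marker shape for the range of database numbers. By the group median all genes but Rrm2 lie lowest at 96 h in KO, and Het 0 h replicate 2 stretches the axes of Fen1, Rrm2, Tk1 and Tfdp1.

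By group median, Het 24 h was the highest of the 8 groups for all genes but Hmgb2, for which it was Het 48 h. KO 96 h was the lowest for Mcm2, Pcna, Fen1, Ccne1, Cdk4 and Hmgb2, and Het 0 h for Rrm2, Tk1 and Tfdp1. At 96 h the KO and Het arrays overlapped for every gene, so the order of these 2 groups lies within their spread.

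The first comparison asked which genes LPS raised within a day. In Het cells at 24 h, 7 of the 9 genes rose over 0 h by limma with Benjamini-Hochberg adjustment over all 331 genes (adjusted p under 0.05), where 13.3% of all genes were past the threshold in either direction and 10.6% upwards. Mcm2 averaged 1.93 ± 0.61 (SD, n = 2) at 24 h and -0.21 ± 1.17 (SD, n = 3) at 0 h, a 4.41-fold rise (log2 difference 2.14 ± 0.57 SE, limma adjusted p = 0.0179). Pcna rose 5.39-fold (2.43 ± 0.59 SE, limma adjusted p = 0.0121) and Ccne1 3.35-fold (1.75 ± 0.43 SE, limma adjusted p = 0.0121). Tk1 rose by 3.32 ± 0.69 (SE, limma adjusted p = 0.00943), Fen1 by 3.46 ± 0.94 (SE, limma adjusted p = 0.0189), Rrm2 by 6.21 ± 1.88 (SE, limma adjusted p = 0.0345) and Tfdp1 by 5.63 ± 1.72 (SE, limma adjusted p = 0.0358). Cdk4 (1.61 ± 0.55 SE) and Hmgb2 (2.05 ± 0.69 SE) missed the threshold, each with a limma adjusted p of 0.056. The median difference was 2.43 over the 9 genes and 0.17 over all genes. The B-cell markers averaged 3.55 and 3.27 on the Het arrays of 24 h and 4.49, 4.60 and 3.28 on those of 0 h.

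The size of 4 of these rises rests on Het 0 h replicate 2. Without it Fen1 differed by 1.90, Rrm2 by 3.02, Tk1 by 2.26 and Tfdp1 by 2.49. The share of all genes in that fit is not given here, and 8 of the 9 were past the threshold, Cdk4 now among them. With all values beyond 6 log2 units set as missing, all 9 were past it, at differences of 1.61 to 3.02, where 15.1% of all genes were. Without the lowest range 8 of 9 genes were past it, where 16.6% of all genes were, with Rrm2 the exception (2.64, limma adjusted p = 0.27). That fit sets 1 Het 24 h array against 1 Het 0 h array, replicate 3, and borrows its spread from the other groups. Without Het 24 h replicate 1 no gene was past the threshold, with a median difference of 2.02 over the 9, and none was with only the groups at 0 and 24 h fitted, with array weights or with single features.

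In KO cells at 24 h all 9 genes lay higher than at 0 h, but 0 of 9 passed the threshold, where 1.51% of all genes did. The differences ran from 0.07 for Hmgb2 to 1.16 for Rrm2, with a median of 0.53 over the 9 genes and -0.08 over all genes. Of the 9 genes 1 (Pcna) had an unadjusted limma p under 0.05, as had 41 of all 331 genes. Pcna averaged 1.22 ± 0.86 (SD, n = 3) at 24 h and 0.11 ± 0.18 (SD, n = 3) at 0 h, a difference of 1.12 ± 0.52 (SE, limma adjusted p = 0.394). KO 24 h replicate 1, the array with the high T and NK markers, had the lowest value of the group for 7 of the 9 genes, all but Rrm2 and Tk1. Without it the median difference of the 9 genes was 1.08, with 0 past the threshold, and the part of that array in the result was not otherwise tested. Without the lowest range the median was 1.18 and Pcna alone passed (1.63 ± 0.44 SE, limma adjusted p = 0.048), where 6.34% of all genes did.

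The response to 24 h of LPS was smaller in KO than in Het for 9 of 9 genes, at differences of -1.32 (Pcna) to -5.05 (Rrm2), and none of these differences passed the threshold. This comparison was added after the values were seen. Tk1 had the lowest limma adjusted p (-2.80 ± 0.93 SE, adjusted p = 0.489), and 0% of all genes were called. Of the 9 genes 4 had an unadjusted limma p under 0.05, as had 26 of all 331 genes. The median difference was -1.975 over the 9 and -0.39 over all genes. The 95% intervals ran from -4.75 to -0.85 for Tk1 and from -3.03 to 0.18 for Mcm2. At 0 h the means were higher in KO, none past the threshold, and that enters this difference too.

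**Figure D4:**
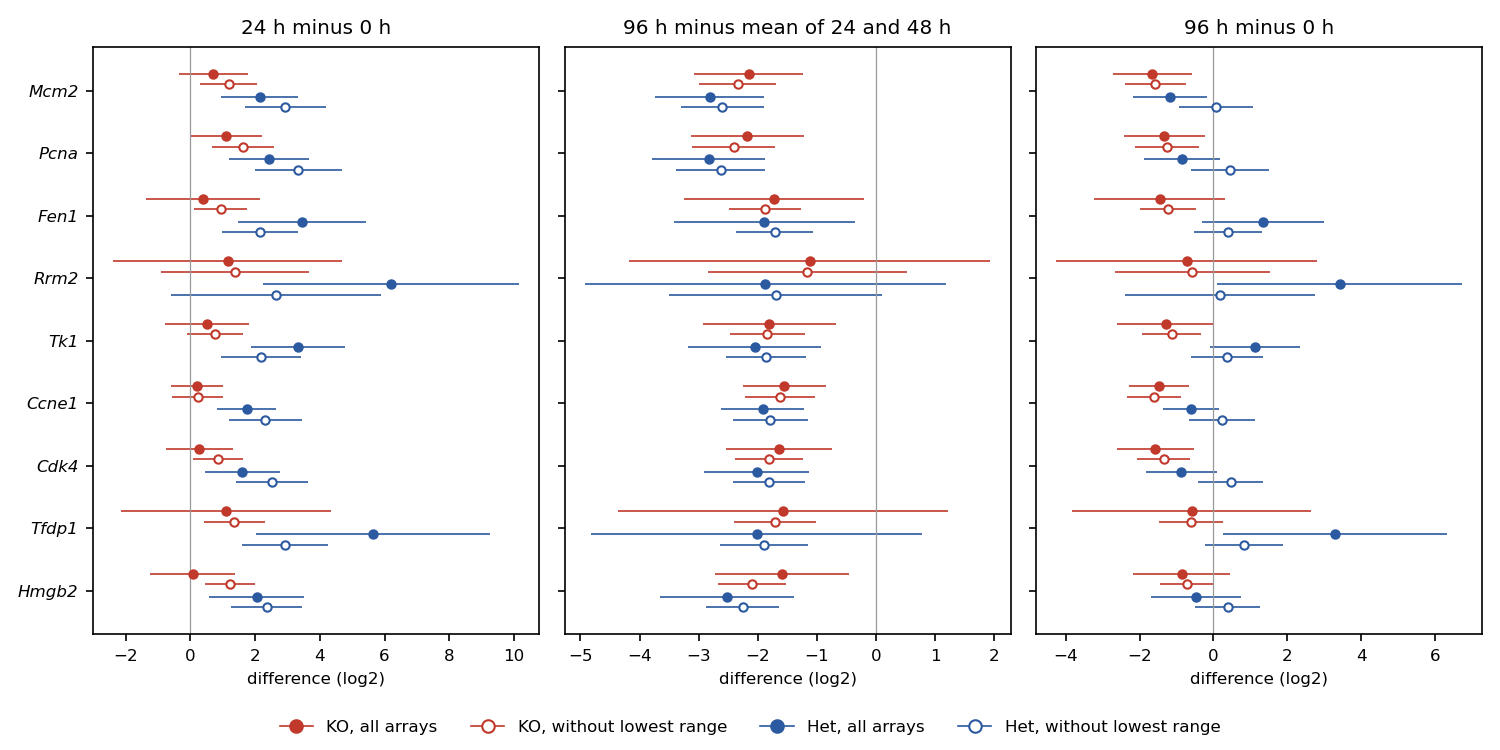
Log2 differences (horizontal axes) of the 9 genes for 24 h minus 0 h, 96 h minus the mean of 24 and 48 h, and 96 h minus 0 h, with 95% intervals of the limma fit, KO in red and Het in blue, filled for all arrays and open without the lowest range of database numbers. All points of the middle panel lie left of 0, while the intervals of Rrm2 and, with all arrays, of Tfdp1 cross it, and the Het intervals of Rrm2 and Tfdp1 shrink when the lowest range is left out.

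At 48 h, Het cells still lay above 0 h for 9 of 9 genes, with a median difference of 2.05 over the 9 and 0.10 over all genes. Tk1 alone passed the threshold (3.04 ± 0.69 SE, limma adjusted p = 0.0107), where 8.46% of all genes did, 6.04% upwards. Without the lowest range 8 genes passed, all but Rrm2, where 23.9% of all genes did, at differences of 1.70 (Ccne1) to 2.90 (Hmgb2) against the 1 Het 0 h array left. Within the highest range Pcna (2.74), Ccne1 (1.79) and Hmgb2 (2.78) passed, where 9.67% of all genes did, and Rrm2 lay lower (-0.46). That fit too sets 1 Het array against 1, with the spread borrowed from the other groups. In KO cells at 48 h 6 of 9 genes lay higher than at 0 h and 0 passed, where 1.51% of all genes did. The largest difference was that of Hmgb2 (1.38 ± 0.62 SE, limma adjusted p = 0.54), which passed without the lowest range (1.52 ± 0.33 SE, limma adjusted p = 0.0139), where 7.25% of all genes did.

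All 9 genes had lower group means at 96 h than the mean of 24 and 48 h in both genotypes. The comparison of these times was added after that had been seen, so its p-values describe a pattern already chosen. In KO cells 5 of 9 genes fell, where 10.6% of all genes were past the threshold, all of them lower. Mcm2 fell 4.44-fold (-2.15 ± 0.44 SE, limma adjusted p = 0.00958), Pcna 4.53-fold (-2.18 ± 0.45 SE, adjusted p = 0.00958) and Tk1 3.50-fold (-1.81 ± 0.54 SE, adjusted p = 0.0362). Ccne1 fell 2.92-fold (-1.55 ± 0.33 SE, limma adjusted p = 0.0109) and Cdk4 3.12-fold (-1.64 ± 0.42 SE, adjusted p = 0.0178). Hmgb2 (-1.59), Fen1 (-1.72), Tfdp1 (-1.57) and Rrm2 (-1.12) did not pass, with limma adjusted p from 0.0629 to 0.679. The median of the 9 was -1.64, against -0.48 over all genes. All 5 calls were lost without KO 96 h replicate 1 or without replicate 2, with medians of -1.61 and -1.57, and with single features, where 0 of 16 features of the 9 genes and 0 of all 12292 features passed.

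In Het cells 6 of 9 genes fell over the same interval, where 30.2% of all genes were past the threshold and 26.9% were lower. Mcm2 fell 7.04-fold (-2.82 ± 0.44 SE) and Pcna 7.11-fold (-2.83 ± 0.45 SE), each with a limma adjusted p of 0.000273. Hmgb2 fell 5.74-fold (-2.52 ± 0.54 SE), Tk1 4.15-fold (-2.05 ± 0.54 SE), Cdk4 4.04-fold (-2.02 ± 0.42 SE) and Ccne1 3.78-fold (-1.92 ± 0.33 SE), with limma adjusted p from 0.000518 to 0.0081. Fen1 (-1.89, limma adjusted p = 0.0591), Tfdp1 (-2.02) and Rrm2 (-1.87) did not pass. The median of the 9 was -2.02, against -0.54 over all genes.

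Every 96 h array lay below every 24 and 48 h array for 7 genes in KO (all but Rrm2 and Hmgb2), as it did for 29.3% of all genes, and for 8 genes in Het (all but Rrm2), as for 35.0% of all genes. Without KO 24 h replicate 1 it was 8 genes in KO, Hmgb2 included, where 51.7% of all genes did so. Without the lowest range 8 genes passed the limma threshold in each genotype, all but Rrm2, where 43.8% of all genes were called in KO and 38.1% in Het. All 96 h arrays belong to the highest range. Within that range the KO difference from 24 and 48 h was -1.49 (Ccne1) to -2.25 (Pcna) for 8 genes and -0.46 for Rrm2. The only KO 24 h array there is replicate 3, and the channel fields of this array and of KO 48 h replicate 3 say Het. Het has no 24 h array in that range. With the 3 arrays of conflicting labels left out, KO differences were -0.65 to -2.08 and 0 passed. In KO the T and NK markers averaged -1.24 to 0.07 at 96 h and the plasma cell markers -1.04 to -0.88. In Het the T and NK markers averaged -1.50 to -0.72 and the plasma cell markers 0.91 to 1.13 at 96 h, against -0.11 to -0.06 for plasma cell markers at 48 h. Their part in the result was not tested.

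The fall was smaller in KO than in Het for 9 of 9 genes, by 0.16 (Fen1) to 0.93 (Hmgb2), and 0 of these differences passed (limma adjusted p = 0.999 for each), where 0.302% of all genes did. The 95% interval for Mcm2 ran from -0.65 to 1.97 and that for Ccne1 from -0.62 to 1.37. The intervals hold both no difference and one of over 1 log2 unit, so a p of this size does not show that both genotypes fell alike.

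Against resting cells, 96 h gave no call. In KO 0 of 9 genes passed, where 0.906% of all genes did. All 9 lay lower, by 0.59 (Tfdp1) to 1.66 (Mcm2), with a median of -1.33 over the 9 genes and -0.60 over all genes. Ccne1 came nearest (-1.48 ± 0.39 SE, limma adjusted p = 0.0708), and for 8 genes, all but Rrm2, every 96 h array lay below every 0 h array, as for 48.3% of all genes. Without the lowest range Mcm2 (-1.57), Ccne1 (-1.61), Cdk4 (-1.35) and Fen1 (-1.22) passed, where 13% of all genes did. In Het 0 of 9 genes passed at 96 h against 25.7% of all genes, 7.85% upwards and 17.8% downwards. Of the 9, 4 lay higher and 5 lower, and for 0 genes did the 96 h arrays all lie below the 0 h arrays, as they did for 13.0% of all genes. The Het differences were -1.16 for Mcm2 and 3.41 for Rrm2 at the ends. They turned on which 0 h arrays were used. Without replicate 3 Mcm2 (-1.78), Pcna (-1.52), Ccne1 (-1.03) and Cdk4 (-1.53) passed as lower and Rrm2 (5.03) and Tfdp1 (4.51) as higher. The share of all genes for that fit is not given here, and with all arrays it was 25.7%. Without the lowest range, with replicate 3 as the 1 resting array, all 9 lay higher by 0.06 to 0.82.

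The study's own contrast is KO against Het at each time. At 0 h the 9 genes lay higher in KO, by 0.38 (Pcna and Hmgb2) to 4.08 (Rrm2), with a median of 0.72 over the 9 and -0.10 over all genes. None of the 9 passed, where 1.81% of all genes did. The Tk1 level averaged 0.06 ± 0.32 in KO against -2.22 ± 1.87 in Het (SD, n = 3 each) (2.28 ± 0.62 SE, limma adjusted p = 0.0793). Every KO array lay above every Het array for Tk1 and Rrm2, as for 7.55% of all genes. For Tk1 this rests on the low feature of Het 0 h replicate 2. The Het arrays set this comparison. Without replicate 3 Fen1 (2.86), Rrm2 (5.69), Tk1 (2.66) and Tfdp1 (4.93) passed, the genes with the features near -10 on replicate 2, and Mcm2, Pcna, Cdk4 and Hmgb2 lay at -0.27 to -0.04. The share of all genes for that fit is not given here, and with all arrays it was 1.81%. Without replicate 2 all 9 lay higher in KO by 0.48 to 1.22 and 0 passed.

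After LPS the 9 genes had lower means in KO than in Het at 24, 48 and 96 h, with 0 past the threshold at any time. At 24 h the differences were -0.51 (Tk1) to -1.59 (Hmgb2), with a median of -0.92 over the 9 and -0.49 over all genes, and 0% of all genes passed. The Mcm2 level averaged 0.92 ± 0.71 (SD, n = 3) in KO, against 1.93 ± 0.61 (SD, n = 2) in Het (-1.0 ± 0.57 SE, limma adjusted p = 0.42, 95% interval -2.20 to 0.19). All KO arrays lay below all Het arrays for Ccne1 and Tfdp1, as for 19.3% of all genes. At 48 h the differences were -0.22 to -0.63 and 0% of all genes passed. All KO arrays lay below all Het arrays for Mcm2, Pcna, Fen1 and Cdk4, as for 22.1% of all genes. At 96 h they were -0.01 to -0.41, where 2.72% of all genes passed. The direction at 96 h was not stable. With the replicate block 6 of the 9 genes lay higher in KO (Mcm2 0.16, Pcna 0.14 and Hmgb2 0.18 among them). The same number did so with centring on the named features or without Het 96 h replicate 4. Only Het at 96 h has a replicate 4, so the block and leaving that array out are the same calculation for this difference. For Mcm2 the 95% interval at 96 h was -1.07 to 0.92 and for Ccne1 -0.91 to 0.61. Averaged over 24, 48 and 96 h, the 9 genes differed by -0.30 (Tk1) to -0.63 (Hmgb2), with a median of -0.52 over the 9 and -0.18 over all genes, and 0 passed, where 2.42% of all genes did. Over the change from 0 to 96 h they differed by -0.39 (Hmgb2) to -4.13 (Rrm2) with 0 past the threshold and 0% of all genes called. The median difference of the 2 myeloid markers between KO and Het was 1.82 before LPS and 2.18, 0.37 and 0.83 after 24, 48 and 96 h of it, with neither marker past the threshold. The markers averaged -3.41 on Het 0 h replicate 2 and on Het 24 h replicate 1. On the other Het arrays they averaged 0.71 and 0.46 at 0 h and 0.69 at 24 h. On KO arrays the markers averaged 0.66 to 1.69 at 0 h and 0.68 to 1.07 at 24 h. At 96 h their averages were 1.12 to 1.38 on KO arrays and -0.16 to 0.80 on Het arrays, without overlap, and their part in the genotype differences was not tested. Over the change from 0 to 96 h the values for Fen1, Rrm2, Tk1 and Tfdp1 carry the low features of Het 0 h replicate 2.

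Outside the lowest range the genes varied together. Over those 18 arrays the 28 pairs without Rrm2 had Pearson correlations of 0.854 to 0.988, with a median of 0.952, and the 8 pairs with Rrm2 of 0.487 to 0.650. The arrays share the time course and the pool, and the median correlation of all other named genes with the mean of the 9 was 0.533. Over all 23 arrays the pairs without Rrm2 ran from 0.262 to 0.982. By the same measure the named genes most like the mean of the 9 were Tuba4a (0.996), an alpha tubulin, Npm1 (0.988), nucleophosmin of the nucleolus, Nasp (0.985), a histone chaperone, Tubb5 (0.985), a beta tubulin, and Dnah7b (0.985), named as a dynein heavy chain, each on 2 features and out of 322 genes ranked. They were chosen by their likeness over these same arrays, so their course is a description and no support for that of the 9. In Het at 24 h these 5 differed by 1.86 (Npm1) to 3.91 (Nasp), and at 96 h they lay below the mean of 24 and 48 h by 2.06 (Npm1) to 2.54 (Tubb5). In KO they lay higher at 24 h by 0.42 (Tuba4a) to 1.02 (Nasp), and the differences at 96 h were -1.63 (Dnah7b) to -2.02 (Nasp).

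Other genes of the same processes were few on this array. None of 61 other replication genes listed, such as the other MCM subunits, the origin recognition complex and the DNA polymerases, was among the named genes. Of 42 further genes of nucleotide supply 7 were measured. In Het at 24 h Ctps, CTP synthase (4.72 ± 0.73 SE, limma adjusted p = 0.00071), Mthfd2, a mitochondrial folate enzyme (2.52), and Nme1, a nucleoside diphosphate kinase (2.15), rose, while Adss (2.10), Aprt (1.60), Ada (-0.03) and Samhd1 (-1.25), which breaks down deoxynucleotides, did not pass. These were 3 of 7 genes, where 10.6% of all genes were called higher, and the median of the 7 was 2.10. In KO at 24 h 0 of 7 passed, where 1.51% of all genes did, with a median of 0.30. From 24 and 48 h to 96 h Nme1 (-2.09) and Aprt (-1.38), 2 of 7, fell in KO, where 10.6% of all genes did. Nme1 (-2.45), Aprt (-1.82), Ctps (-1.78) and Adss (-1.63), 4 of 7, fell in Het, where 26.9% of all genes did.

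Of 35 G1 and S regulators 2 were measured and neither rose at 24 h. Ccnd1, cyclin D1, differed by -1.51 in KO and -0.76 in Het, and Myc by -1.41 in KO and -0.01 in Het. Myc fell from the mean of 24 and 48 h to 96 h in Het (-1.64 ± 0.58 SE, limma adjusted p = 0.0426) and differed by -0.81 in KO. Of 41 genes of G2 and mitosis 2 were measured, the kinase gene Plk1 and the proliferation marker Mki67. Plk1 rose in Het at 48 h (3.96 ± 1.19 SE, limma adjusted p = 0.0463). Mki67 did not follow the late course of the 9 genes, with 96 h at 0.02 from the mean of 24 and 48 h in KO and at -0.64 in Het. The median of Plk1 and Mki67 was -0.98 in KO and -1.49 in Het, so Plk1 lay lower than Mki67. Neither gene was past the threshold in either genotype. Of 22 HMG, histone and histone-handling genes 3 were measured. H2ax, the histone variant of DNA damage signalling, fell at 96 h by 1.03 in KO and by 1.24 in Het, and Npm1 is given above. Anp32a, an acidic nuclear phosphoprotein, differed by -0.64 in KO and -1.22 in Het without passing.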

How the data were processed

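The authors hybridised Cy5-labelled B-cell RNA and a Cy3-labelled reference pool to each of 23 mouse arrays, per the labels. As deposited, a value is a log2 ratio of both channels for 1 of 12292 features. No source used here states the log base, the direction or the normalization. Base 2 was read from how far the values spread and the direction from the dyes, sample over pool, with Cd79b above the pool on 23 of 23 arrays. The median of the deposited values was -0.443 to 0.277 per array. The 4 human arrays of the series were not used.

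Each array was centred on its median. Of the features, 559 carried 1 gene symbol, 44 several and 11689 none. Features of a gene were averaged, giving 331 genes, 328 of them matched to RefSeq. Groups were fitted together in limma 3.58.1 (R 4.3.3, statmod 1.5.0), with 1 mean per genotype and time, empirical Bayes moderation and Benjamini-Hochberg adjustment over all genes. The fit was tested on simulated data. Promoters came from RefSeq on GRCm38.p6. Figures used Python 3.11.15 and matplotlib 3.10.9.

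Named in the text are the 9 genes, the measured members of 5 gene lists and the 5 other genes that correlated best with the mean of the 9 outside the lowest range of database numbers. The members and lists were chosen with earlier results of these data known. The comparisons of 96 h with the mean of 24 and 48 h, their difference between genotypes, and the difference in the 0 to 24 h response were added after the values were seen. Alternatives covered the centring, normalization, weights, feature use, database range, conflicting labels, extreme values, a replicate block and leaving out each array. Same-numbered KO and Het replicates of 1 time correlated above 0.1 in 5 of 10 pairs (-0.175 to 0.511, median 0.1). Other KO and Het pairs of 1 time did so in 3 of 23 (-0.511 to 0.363, median -0.033). These values do not settle whether the numbers pair arrays, and the labels do not say. The main fit used no pairs, and the replicate block was run as an alternative. The number of arrays limits the precision.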

Additional observations from a re-analysis of the deposited data

How the results depend on the processing

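In all, 39 alternatives were run, 23 of which left out 1 array, and no call of a gene reversed. Over single genes and alternatives, 5435 of 5674 values kept their side of the threshold, 150 passed it newly and 89 lost it. Counts here and in the next paragraph are of the 9 genes past the limma threshold, and the cause of each change was not tested. The share of all genes past the threshold moved with the setting too. For the KO fall to 96 h it was 10.6% in the main fit, 18.1% with values beyond 6 log2 units missing and 43.8% without the lowest range. Those last settings gave the same count of the 9 genes at unlike shares, so equal counts are not equal results. A count printed without its share describes the setting and is no result about the 9 genes. In Het at 24 h (7 genes) it was 3 with quantile normalization and 0 with array weights, with only the groups compared, or with single features. In Het at 48 h (1 gene) it was 5 with centring on the named features or without centring, 3 with quantile normalization, with scaling or within the highest range, 8 without the lowest range, 4 with the conflicting labels read as Het, 2 with values beyond 6 log2 units missing, and 0 with only the groups compared or single features. In Het at 96 h (0 genes) it was 1 with centring on the named features. In KO at 24 h (0 genes) it was 1 with that centring, with array weights or without the lowest range, and at 48 h (0 genes) 1 with weights or without that range. In KO at 96 h against 0 h (0 genes) it was 1 with named-feature centring, no centring or extreme values missing, 4 with scaling or without the lowest range, and 6 with quantile normalization, weights or only the groups compared. KO against Het at 0 h (0 genes) gave 1 without centring, and the 0 to 96 h response (0 genes) 1 with quantile normalization. The KO fall to 96 h (5 genes) gave 8 with weights, without the lowest range, within the highest range or with extreme values missing, 3 with the range as a factor, and 0 with single features or when the 3 arrays of conflicting labels were dropped or read as Het.

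Leaving out each array in turn gave 0 to 9 genes for Het at 24 h (0 without Het 24 h replicate 1) and 0 to 6 for Het at 48 h (0 without Het 48 h replicate 1, 6 without Het 0 h replicate 1, 4 without Het 0 h replicate 3). It gave 0 to 6 for Het at 96 h (3 without Het 0 h replicate 1, 6 without Het 0 h replicate 3) and 0 to 3 for KO at 96 h (3 without Het 0 h replicate 3). KO against Het at 0 h gave 0 to 4 (3 without Het 0 h replicate 1, 4 without replicate 3) and the 0 to 96 h response 0 to 2 (2 without Het 0 h replicate 1). The KO fall gave 0 to 7 (0 without KO 96 h replicate 1 or 2) and the Het fall 6 to 9. KO against Het at 24, 48 and 96 h and over these times, in the 0 to 24 h response and in the fall gave 0 in every alternative run. The replicate block left 7 genes for Het at 24 h, 1 at 48 h, 6 for the Het fall and 5 for the KO fall. Under it, and with named-feature centring, 6 genes lay higher in KO at 96 h, none past the threshold. Named-feature centring moved the median Het difference of all genes between 0 and 96 h to 0.20 from -0.42. The highest range alone was not run for comparisons that use Het 24 h, which has no array there.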
